A study of Mus musculus with 4 samples.

Results

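Red blood cell transcripts were followed in RNA from mouse otocysts, the closed epithelial vesicles that form the inner ear, through 10 genes out of 52636 in the deposited tables. The 10 genes were chosen by symbol for what they encode: the globins Hbb-y, Hbb-bh1, Hba-x, Hba-a1, Hba-a2, Hbb-bt and Hbb-bs, the red cell membrane protein gene Slc4a1, and the erythroid transcription factor genes Gata1 and Klf1. The 4 libraries were compared, written here by their labels: Control replicates 1 and 2, and Brg1cKO replicates 1 and 2, for a conditional knockout of the chromatin remodeler Brg1 (gene Smarca4). Each was made from 3000 sorted otic cells. The Cre line, the floxed allele, the embryonic age, the sorting marker and any genotype that the controls share with the knockout are not stated in the labels, nor is whether replicates came from separate litters or sorts, so the p-values below speak only of how much these libraries vary, and that may be technical.

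Haemoglobin carries oxygen as a tetramer of alpha-type and beta-type globin chains. In the mouse, the first red cells come from the yolk sac and carry haemoglobins built from the embryonic chains of Hba-x, Hbb-y and Hbb-bh1 together with adult alpha chains. Definitive red cells, made later in the fetal liver, use the adult chains of Hba-a1, Hba-a2, Hbb-bt and Hbb-bs. Gata1 and Klf1 encode zinc-finger factors that switch on globin and other red cell genes, and Slc4a1 encodes band 3, the anion exchanger of the red cell membrane. Red cells are no part of the otic epithelium, and they circulate through the vessels and tissue around the otocyst.

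Gene reads numbered 15357265 and 19132360 in control libraries against 29361382 and 25875555 in Brg1cKO, and reads that fell in genes were 48.2% and 49.3% of records against 64.0% and 63.7%. Replicates differed by more than counting error, with a log2 ratio between replicates whose SD over the genes tested was 2.30 in the controls and 1.27 in Brg1cKO. Levels are given as CPM, a count per 1000000 reads of a library total adjusted by TMM scaling. Smarca4 was at 816 and 815 CPM in control libraries against 891 and 848 CPM in Brg1cKO, so its whole-gene count does not check the labels, and each direction below rests on them. RNA of the otic marker Oc90, which encodes the main protein of otoconia, was present in all 4 libraries. It was at 782 and 732 CPM in control libraries against 44.6 and 49.1 CPM in Brg1cKO. The otic marker Otx1 was at 36.4 and 80.1 CPM against 1.40 and 2.08 CPM, so otic markers were uneven over the libraries. Endothelial and white blood cell transcripts were present in all 4 libraries as well, with Cdh5, a cadherin of endothelial junctions, between 694 and 795 CPM.

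The adult genes come in near-identical pairs, which limits what reads of 75 bases can tell. Over the 426 coding bases of Hba-a1 and Hba-a2 there was 1 difference, and over the 441 of Hbb-bt and Hbb-bs there was 1. Both pairs thus encode identical proteins over all 142 and 147 residues. The stretches below, each 75 bases of coding sequence from the GENCODE M21 transcripts (mm10), show how alike the copies are: each ends on the single coding difference of its pair, in capitals, and matches its partner at every base before it. A read inside the shared sequence matches both genes. The stretches lie at chr11:32284269-32284343 on the plus strand (Hba-a1), chr11:32297086-32297160 on the plus strand (Hba-a2), chr7:103812683-103812757 on the minus strand (Hbb-bt) and chr7:103826692-103826766 on the minus strand (Hbb-bs), each within a coding exon.
Hba-a1: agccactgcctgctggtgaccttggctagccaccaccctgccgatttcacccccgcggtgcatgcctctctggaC
Hba-a2: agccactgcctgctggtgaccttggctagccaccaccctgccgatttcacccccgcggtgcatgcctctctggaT
Hbb-bt: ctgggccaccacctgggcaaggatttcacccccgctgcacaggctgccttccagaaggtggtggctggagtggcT
Hbb-bs: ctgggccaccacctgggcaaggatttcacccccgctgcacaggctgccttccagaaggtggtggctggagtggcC

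Of the 625 distinct 75-base windows in the coding transcripts of Hba-a1, 236 (37.8%) were found in no other gene's transcript, and for Hba-a2 it was 91 of 480 (19.0%). For Hbb-bt it was 273 of 629 (43.4%) and for Hbb-bs 282 of 638 (44.2%). For Hbb-y, Hbb-bh1, Hba-x, Slc4a1, Gata1 and Klf1 every window was unique. Hbb-y and Hbb-bh1 shared 76.4% of their coding bases, and Hba-x shared 61.7% with Hba-a1. In the files, reads without a unique alignment stand outside the gene counts, so the counts of the 4 adult genes cover only part of each transcript and are uncertain, while those of the 3 embryonic genes cover all of it.

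Embryonic globins made up nearly all the globin reads that were counted, and their level was lower in the Brg1cKO libraries. Hbb-y, the epsilon-type beta chain (ENSMUSG00000052187, mm10 chr7:103851749-103853216, minus strand, 3 exons), was at 224 and 372 CPM in control libraries against 95.5 and 81.2 CPM in Brg1cKO. Hba-x, the zeta-type alpha chain (ENSMUSG00000055609, chr11:32276400-32278116, plus strand), was at 254 and 159 CPM in control libraries against 78.9 and 76.9 CPM. Hbb-bh1, the other embryonic beta chain (ENSMUSG00000052217, chr7:103841637-103843164, minus strand), was at 52.5 and 70.4 CPM against 28.7 and 29.3 CPM. For all 3 genes both Brg1cKO libraries lay below both controls, and the controls differed from each other more than the Brg1cKO libraries did. Control replicate 2 had the higher value of Hbb-y and Hbb-bh1, and control replicate 1 the higher value of Hba-x. From bulk RNA, fewer red cells in the sort and less globin RNA per red cell cannot be told apart. The groups also differed in unaligned records, 20.9% and 19.1% in control libraries against 9.54% and 9.41% in Brg1cKO. Any part of this in the globin values was not tested.

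The group means of Hbb-y were 298 ± 104 CPM in the controls and 88.3 ± 10.1 CPM in Brg1cKO (SD, n = 2 each). The fitted log2 difference was -1.76 ± 0.277 (SE), and its 95% interval ran from -2.41 to -1.10. By edgeR's quasi-likelihood test with Benjamini-Hochberg adjustment over 16557 genes it did not pass (adjusted p = 0.113, unadjusted p = 0.000362). Hba-x had a log2 fold change of -1.41 ± 0.279 with an interval from -2.06 to -0.75 (edgeR adjusted p = 0.179). The change of Hbb-bh1 was the smallest of the 3 at -1.09 ± 0.399, with an interval from -2.02 to -0.15 (edgeR adjusted p = 0.368). These intervals overlap, and no test of one gene against another was made.

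**Figure D1:**
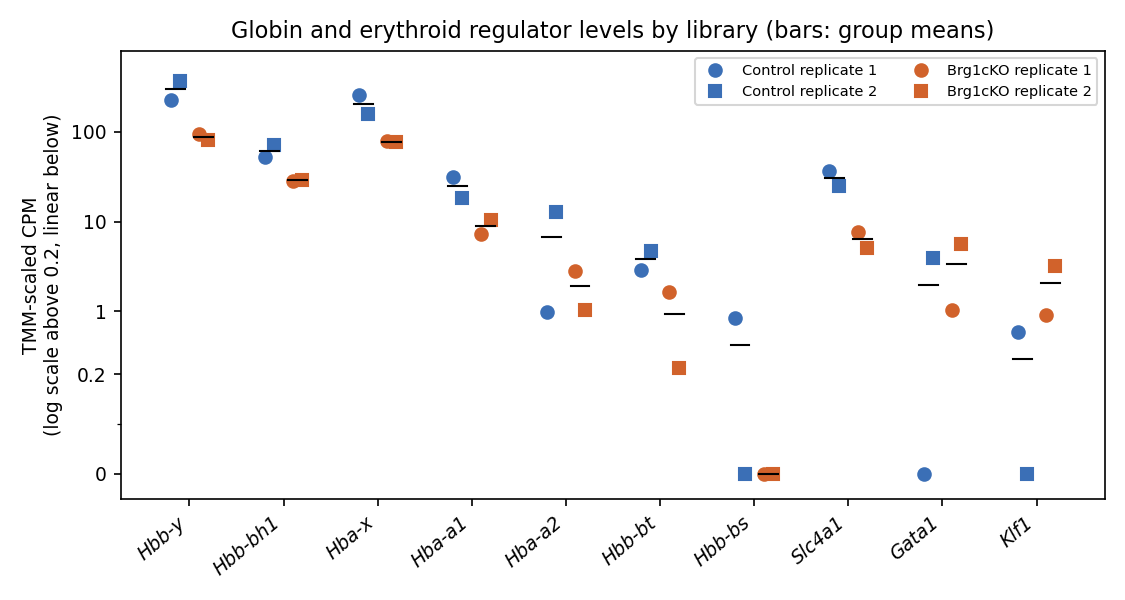
TMM-scaled CPM of each of the 10 genes (vertical axis, logarithmic above 0.2 and linear below) in the 4 libraries, with black bars for group means. Hbb-y, Hbb-bh1, Hba-x, Hba-a1, Hbb-bt and Slc4a1 are lower in Brg1cKO without overlap, and Klf1 is higher without overlap. Hba-a2, Hbb-bt, Gata1 and Klf1 spread widely between replicates.

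Adult globins had few counted reads, of which each gene can give only a part, and their sum was lower in both Brg1cKO libraries. Hba-a1 (ENSMUSG00000069919, chr11:32283511-32284465, plus strand) was at 31.8 and 18.1 CPM in control libraries against 7.34 and 10.4 CPM in Brg1cKO, without overlap. Its log2 fold change was -1.49 ± 0.733 (edgeR adjusted p = 0.491). Hba-a2 (ENSMUSG00000069917, chr11:32296489-32297298, plus strand) stood on 15 and 238 reads in control libraries against 83 and 27 reads in Brg1cKO, so the controls spanned both Brg1cKO values. Its log2 fold change of -1.81 ± 1.83 had an interval from -6.12 to 2.51, and without control replicate 2 it turned to 0.97. Summed over the pair, which removes the question of which copy a read came from only among the reads that were counted, Hba-a1 and Hba-a2 were at 32.7 and 30.7 CPM against 10.2 and 11.5 CPM. The sum was far closer between replicates than either gene alone.

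Hbb-bt (ENSMUSG00000073940, chr7:103812524-103813996, minus strand), an adult beta chain, had 45 and 89 reads in control libraries against 48 and 6 reads in Brg1cKO. In CPM these were 2.92 and 4.72 against 1.64 and 0.231, so both Brg1cKO libraries were lower but by unequal amounts, and the log2 fold change was -2.02 ± 2.02 (edgeR adjusted p = 0.799). It was -4.00 without Brg1cKO replicate 1 and -1.21 without Brg1cKO replicate 2. Hbb-bs (ENSMUSG00000052305, chr7:103826534-103828096, minus strand) had 13 reads in control replicate 1 and 0 in the other 3 libraries. It was the only one of the 10 genes removed by the filter on low counts, and it was not tested. Counted reads of other alpha- and beta-type globin genes, Hbb-bh2, Hbb-bh0, Hbb-bh3, Hbq1a and Hbq1b, numbered 0 in every library, and the last 2 genes were named after their values were seen. How much of these transcripts can be read uniquely was not checked, so a 0 may reflect the counting. Hbb-b1 and Hbb-b2 were not among the counted genes.

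The 7 globins together held 568 and 637 CPM in control libraries against 215 and 199 CPM in Brg1cKO. The means were 602 ± 48.7 and 207 ± 11.2 CPM (SD, n = 2 each), 2.91-fold higher in the controls, and the groups did not overlap. A two-sided exact permutation test of the 4 libraries gave p = 0.333, the smallest value that 2 against 2 allows. The embryonic genes summed to 566 CPM in control libraries against 195 CPM in Brg1cKO, a ratio of 2.90, and the adult genes to 36.0 and 11.8 CPM, a ratio of 3.06. The 2 ratios were close, and the difference between them was not tested.

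Embryonic against adult shares of the globin reads overlapped between the groups. Hbb-y and Hbb-bh1 made up 98.7% and 98.9% of the beta-type reads in the controls (Wilson 95% intervals 98.3 to 99.0% and 98.7 to 99.1%) and 98.7% and 99.8% in Brg1cKO (98.3 to 99.0% and 99.5 to 99.9%). These intervals cover counting error only, since amplified reads are not independent molecules. The difference of 0.443 percentage points was within the spread between replicates (two-sided exact permutation p = 0.667). Hba-x made up 88.6% and 83.8% of the alpha-type reads in the controls and 88.6% and 87.0% in Brg1cKO (two-sided exact permutation p = 1). Since most of each adult transcript cannot be counted, both shares overstate the embryonic part: per uniquely readable position, Hba-x made up between 46.1% and 67.0% of the alpha-type signal, and Hbb-y with Hbb-bh1 between 97.3% and 99.6% of the beta-type signal.

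Within the embryonic beta genes, the Hbb-y share was lower in both Brg1cKO libraries, with groups too small for an exact test to reach significance. Hbb-y made up 81.0% and 84.1% of the reads of Hbb-y and Hbb-bh1 in the controls and 76.9% and 73.5% in Brg1cKO. Both Brg1cKO libraries lay below both controls, and the mean difference was -7.35 percentage points. Wilson intervals, which cover counting error only, did not meet between the nearest pair (79.8 to 82.2% and 75.5 to 78.3%). Nor did they meet between replicates, at 79.8 to 82.2% and 83.3 to 84.9% in the controls. In Brg1cKO they were 75.5 to 78.3% and 71.9 to 75.1%. Their separation therefore does not bear on the group difference. The two-sided exact permutation test gave p = 0.333, again the smallest possible. Leaving out any 1 library kept the difference between -9.06 and -5.64 points. The alpha-type share of all globin reads was unstable, at 50.6% and 29.8% in the controls and 41.5% and 44.4% in Brg1cKO, so the controls lay on either side of the others.

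**Figure D2:**
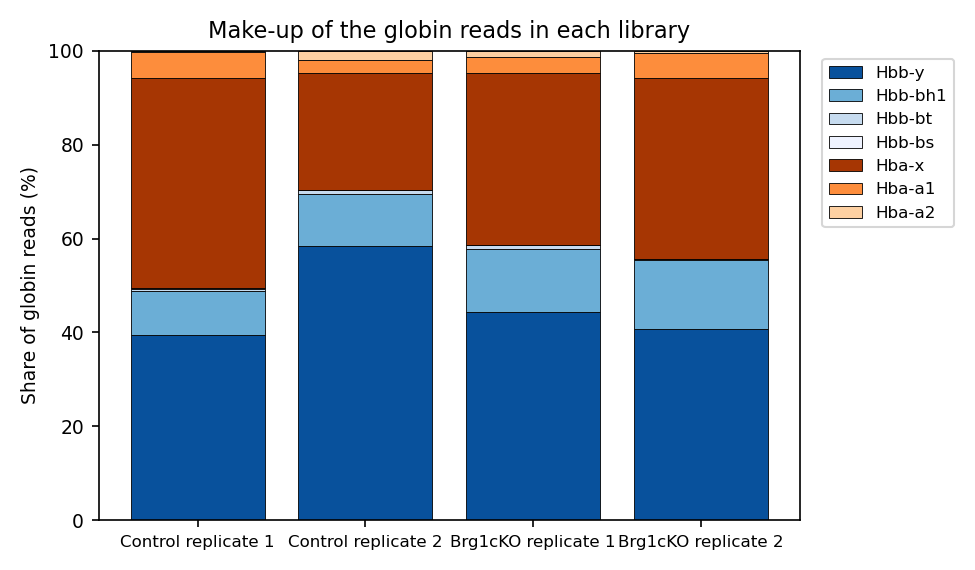
Share of globin reads (vertical axis, percent) from each of the 7 globin genes in each library, beta-type genes in blue and alpha-type genes in orange. Hbb-y, Hbb-bh1 and Hba-x together hold 93.6% to 94.5% of the reads in each of the 4 libraries, and the 2 controls differ from each other more in their Hbb-y and Hba-x shares than the Brg1cKO libraries do.

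To compare levels between genes, CPM was divided by the number of uniquely readable 75-base positions and is given per 1000 of them. On this scale Hbb-y led in the controls (401 and 666), followed by Hba-x (295 and 184), Hbb-bh1 (97.4 and 131), Hba-a1 (135 and 76.7) and Hba-a2 (10.7 and 139). Hbb-y stood above Hba-x, and Hba-x above Hbb-bh1, in both controls without overlap, whereas the ranges of Hbb-bh1, Hba-a1 and Hba-a2 overlapped, and that of Hba-a2 also met that of Hbb-bt. Below them came Hbb-bt (10.7 and 17.3), Slc4a1 (8.14 and 5.61), Hbb-bs (2.99 and 0), Gata1 (0 and 1.66) and Klf1 (0.402 and 0). In the Brg1cKO libraries the first 5 genes kept this order, from Hbb-y (171 and 145) over Hba-x (91.6 and 89.2) and Hbb-bh1 (53.2 and 54.3) to Hba-a1 (31.1 and 44.1) and Hba-a2 (31.2 and 11.4), of which the last 2 overlapped.

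Slc4a1, the anion exchanger gene (ENSMUSG00000006574, chr11:102348824-102366203, minus strand) was lower in both Brg1cKO libraries. It was at 36.4 and 25.1 CPM in control libraries against 7.58 and 5.05 CPM in Brg1cKO, with no overlap, and replicates differed 1.45-fold in the controls and 1.501-fold in Brg1cKO. The log2 fold change was -2.28 ± 0.697 with a 95% interval from -3.92 to -0.64, and it did not pass (edgeR adjusted p = 0.365, unadjusted p = 0.0130). Per 1000 globin reads, Slc4a1 had 64.1 and 39.4 reads in control libraries against 35.3 and 25.4 in Brg1cKO, again without overlap.

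Gata1 and Klf1, the regulators, were read too thinly to compare. Gata1 (ENSMUSG00000031162, chrX:7959260-7978071, minus strand), the founding factor of the erythroid and megakaryocyte lineages, had 0 and 74 reads in control libraries against 30 and 147 reads in Brg1cKO, or 0 and 3.93 CPM against 1.025 and 5.67 CPM. The groups overlapped. Klf1 (ENSMUSG00000054191, chr8:84901928-84905291, plus strand), which binds the CACCC element of the adult beta-globin promoter, had 9 and 0 reads in control libraries against 27 and 84 in Brg1cKO, or 0.585 and 0 CPM against 0.922 and 3.24 CPM. Log2 fold changes were 0.77 ± 2.47 for Gata1 and 2.82 ± 2.48 for Klf1 (edgeR adjusted p = 0.953 and 0.772), and the intervals, from -5.05 to 6.58 and from -3.03 to 8.67, leave either direction possible. A read count of 0 allows up to 3 counts in that library. At these counts no difference of either factor was detected.

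In all, 9 of the 10 genes were tested, and 0 passed at an adjusted p under 0.05 by edgeR, where 5 of 16557 genes did (0.0302%), 3 of them lower (0.0181%). At an unadjusted p under 0.05 there were 4 of the 9, Hbb-y, Hba-x, Slc4a1 and Hbb-bh1, all lower, beside 4.8% of all tested genes that were lower at that level. Both Brg1cKO libraries lay below both controls for 6 of the 9 genes (17.8% of all tested genes did), and above both for Klf1 alone (26.3%). Red cell genes can vary together, so the 9 genes are not independent cases beside these shares. Log2 fold changes were negative for 7 (48.5% of all tested genes) and positive for 2 (51.5%), and the median was -1.49 over the 9 genes and 0.03 over all tested genes. With DESeq2, 5 of the 9 passed, all lower (Hbb-y, Hbb-bh1, Hba-x, Hba-a1 and Slc4a1), beside 6.3% of all genes called lower, and with limma voom only Hbb-y passed (0.205%). Hbb-y also passed with the newer edgeR moderation (0.217%), and Hbb-y and Hba-x passed when every gene with at least 1 count was tested (1.01%) and with the replicate number as a block (0.417%), while with a minimum count of 50, which removed Klf1, 0 of the remaining 8 passed (0.0433%).

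The calls varied with the library left out. Without control replicate 1, Hbb-y, Hbb-bh1, Hba-x and Slc4a1 passed by edgeR (8.82% of all genes called lower), and without control replicate 2 it was Hbb-y, Hba-x, Hba-a1 and Slc4a1 (8.39%). Without Brg1cKO replicate 1 or 2 only Hbb-y passed (0.116% and 0.0734%). A group left with a single library is assumed to vary like the other group. Hbb-y kept a negative fold change in all 15 alternatives, between -2.07 and -1.36, and passed in 9 of them, with adjusted p from 5.44e-24 to 0.113.

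**Figure D3:**
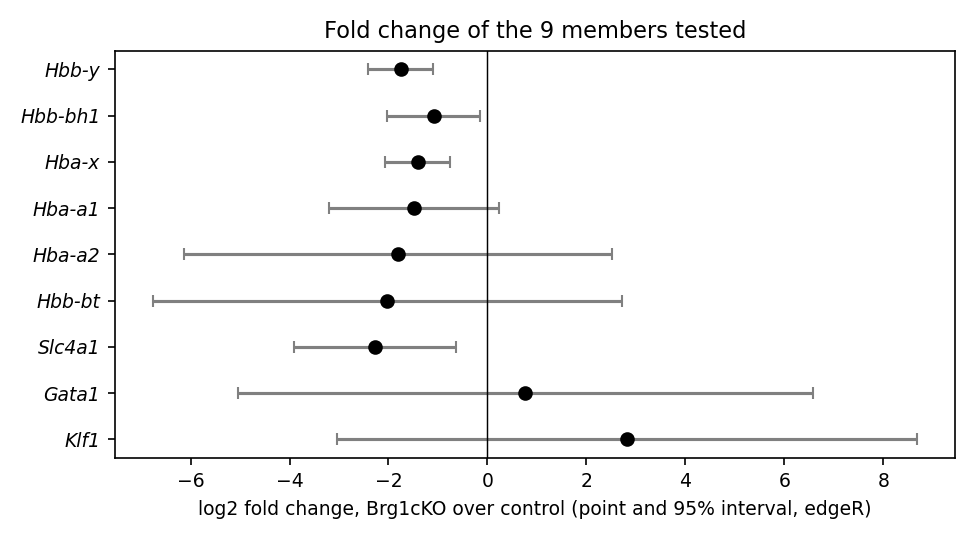
Log2 fold change of Brg1cKO over control (horizontal axis) for the 9 genes tested by edgeR, with 95% intervals as bars. The intervals of Hbb-y, Hbb-bh1, Hba-x and Slc4a1 lie below 0, and those of Hba-a2, Hbb-bt, Gata1 and Klf1 span several log2 units on both sides of it.

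**Figure D4:**
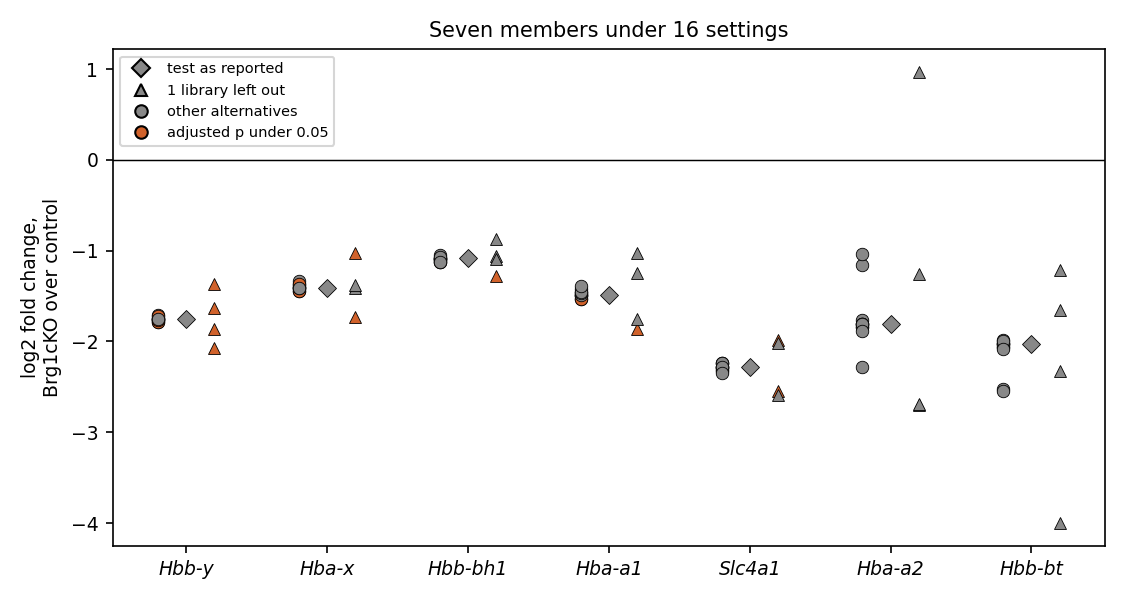
Log2 fold change (vertical axis) of 7 of the genes under the reported test (diamonds), with 1 library left out (triangles) and under the other alternatives (circles), in orange where the adjusted p was under 0.05. Hbb-y, Hba-x, Hbb-bh1, Hba-a1, Slc4a1 and Hbb-bt stay below 0 throughout, and Hba-a2 turns positive without control replicate 2; Gata1 and Klf1 are left out of the plot for their wide range.

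The regions before the RefSeq starts of these genes were searched for letters that GATA and KLF factors are known to bind, and apart from these for CCAAT. They are shown for Hbb-y, the beta-type gene with the most reads, and for the adult alpha gene Hba-a2. RefSeq's table for GRCm38.p6 holds a window for 8 of the 10 genes, all but Hbb-bh1 and Slc4a1. The 250 bases before each start were searched on both strands for CACCC (a KLF-type element), for GATA-type elements (AGATAA, or with T as the first base) and for CCAAT, and matches, none overlapping another, are in capitals. GENCODE M21 begins these genes upstream of the RefSeq starts. Of the 250 bases, 9 of the Hbb-y window and 3 of the Hba-a2 window lie inside the GENCODE gene, and 54 to 250 in the other 6 windows, so the windows are not all upstream of every annotated start. The windows shown are chr7:103853208-103853457 (minus strand, Hbb-y) and chr11:32296242-32296491 (plus strand, Hba-a2).
Hbb-y: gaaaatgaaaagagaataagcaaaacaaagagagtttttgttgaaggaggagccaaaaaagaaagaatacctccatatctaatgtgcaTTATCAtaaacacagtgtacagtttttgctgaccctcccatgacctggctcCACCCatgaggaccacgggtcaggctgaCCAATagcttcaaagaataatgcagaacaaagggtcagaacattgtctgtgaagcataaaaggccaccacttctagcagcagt
Hba-a2: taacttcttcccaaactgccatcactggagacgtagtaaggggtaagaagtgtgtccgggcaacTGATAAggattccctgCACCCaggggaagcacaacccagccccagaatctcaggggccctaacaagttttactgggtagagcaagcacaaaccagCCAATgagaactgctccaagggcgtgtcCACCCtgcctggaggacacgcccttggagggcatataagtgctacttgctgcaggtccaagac

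CACCC was found in 8 of the 8 windows, beside 52.0% of all 32851 windows of this length, a GATA-type element in 6 (16.6%) and CCAAT in 6 (33.8%). All 3 stood together in 5 windows, those of Hbb-y, Hba-a1, Hba-a2, Hbb-bs and Klf1, beside 2.33% of all windows. Hba-a1 and Hba-a2 are not separate cases, since a run of 247 bases is shared by their 250-base windows. In Hbb-y the CACCC match stood at position -111 and the CCAAT match at -83, counted from the RefSeq start. CACCC and the GATA-type element were chosen for factors known to switch on globin genes, so their shares here are no new result. A match is only a run of letters, and binding was not measured in these data.

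Other genes of the red cell program gave few calls. Of 11 genes of haem synthesis tested, 0 were called by edgeR and 0 had an unadjusted p under 0.05 (12.5% of all tested genes did), with a median log2 fold change of 0.04. DESeq2 called 0 of them as well. Among them Alas2, the red cell form of the first enzyme of the pathway, had 187 and 63 reads in control libraries against 72 and 19 in Brg1cKO, or 12.1 and 3.34 CPM against 2.46 and 0.733 CPM, and its log2 fold change was -2.27 ± 1.67. Slc25a39, a mitochondrial carrier expressed in many tissues, was at 88.2 and 123 CPM against 129 and 124 CPM. Alas2 was named after its values were seen. With 1 library left out the median of the list was -0.20 and 0.44 (without control replicate 1 and 2) and -0.02 and 0.21 (without Brg1cKO replicate 1 and 2).

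Of 16 red cell membrane and skeleton genes tested, 0 were called by edgeR and 2 had an unadjusted p under 0.05 (12.5% of all tested genes did). The median was -0.14, with 11 negative and 5 positive, and it was 0.42 and -0.67 without control replicate 1 and 2 and -0.73 without Brg1cKO replicate 2. Epb41, the skeletal protein 4.1R, which many cell types make, was at 335 and 323 CPM in control libraries against 229 and 201 CPM in Brg1cKO (log2 fold change -0.62 ± 0.161, edgeR adjusted p = 0.308). Sptb, erythroid beta-spectrin, was at 121 and 59.6 against 52.3 and 38.3 CPM (edgeR adjusted p = 0.412). Kel, a red cell blood group gene, had 0 reads in both controls and 16 in each Brg1cKO library, at least 6.64-fold higher against 3 counts over the control group.

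Red cell maturation genes and iron uptake genes gave no edgeR call either. Of 15 maturation and enzyme genes tested, 0 were called and 2 had an unadjusted p under 0.05, both higher (7.66% of all tested genes were). The median was -0.10, and it was 0.60 and 0.10 without control replicate 1 and 2 and 0.06 and -0.06 without Brg1cKO replicate 1 and 2. Icam4, an adhesion protein, and Car1, a carbonic anhydrase, both of red cells and named after their values were seen, had 0 reads in every library. Of 12 genes of erythropoietin signalling and iron uptake, 0 were called and 0 had an unadjusted p under 0.05, with a median of 0.04 that was 0.34 and 0.07 without control replicate 1 and 2 and 0.12 without Brg1cKO replicate 1. Tfrc, the transferrin receptor that brings iron into dividing cells, was at 112 and 83.9 against 108 and 138 CPM. By DESeq2, 1 of the 16 membrane genes was called lower (6.3% of all tested genes were), 2 of the 15 maturation genes were called higher (8.33%), and 0 iron uptake genes were called.

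Transcription factors of the erythroid network had mostly positive fold changes. Of 15 tested, 0 were called by edgeR and 4 had an unadjusted p under 0.05, all higher (7.66% of all tested genes were). Of the 15, 11 had positive and 4 negative log2 fold changes, and the median was 0.44. Without control replicate 1 the median was 0.23. Zfpm1, the GATA1 partner FOG1, was at 84.3 and 83.5 CPM in control libraries against 187 and 204 CPM in Brg1cKO (log2 fold change 1.22 ± 0.215, edgeR adjusted p = 0.128). Gfi1b, a repressor needed for red cells and megakaryocytes, had 0 reads in both controls and 140 and 32 in Brg1cKO, at least 34.3-fold higher. Both Brg1cKO libraries lay above both controls for 7 of the 15 (26.3% of all tested genes did) and below both for 0 (17.8%). DESeq2 called 4 of the 15 higher (8.33% of all tested genes were). Several genes of this list are also expressed by endothelium and other blood cells.

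Platelet and megakaryocyte genes, of the lineage that shares Gata1, Zfpm1 and Gfi1b with red cells, summed to 144 and 194 CPM over 13 genes in control libraries against 291 and 272 CPM in Brg1cKO. Most of the control sums came from Vwf, the von Willebrand factor gene, and from Clec1b, given below. Vwf was at 77.1 and 116 CPM in control libraries against 150 and 118 CPM in Brg1cKO. Pf4, platelet factor 4, had 2 and 0 reads in control libraries against 630 and 830 in Brg1cKO, or 0.130 and 0 CPM against 21.5 and 32.0 CPM. Itgb3, the beta subunit of the platelet fibrinogen receptor, was at 12.5 and 12.4 against 33.7 and 48.9 CPM. Which cells gave the Pf4 and Itgb3 reads was not tested, and macrophage genes, given below, also summed higher in Brg1cKO. Of 11 genes tested, 0 were called by edgeR (lowest adjusted p = 0.124, for Pf4), 6 had an unadjusted p under 0.05, all higher (7.66% of all tested genes were higher at that level), and the median log2 fold change was 3.45. The median was 8.49 without control replicate 2, 5.31 without Brg1cKO replicate 2, and 2.26 with a minimum count of 50. DESeq2 called 6 of the 11 higher (8.33% of all tested genes were). Clec1b, a receptor of platelets and some endothelium, went against this, at 54.2 and 44.6 against 41.6 and 25.7 CPM.

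Markers of other cell types differed between the same libraries, and their part in the globin values was not tested. Summed CPM of the 15 macrophage genes was 398 and 455 in control libraries against 1702 and 1618 in Brg1cKO. By edgeR 1 macrophage gene passed, Mrc1, the mannose receptor, at 46.3 and 71.7 against 424 and 397 CPM (log2 fold change 2.80 ± 0.249, adjusted p = 0.0371), and by DESeq2 10 of the 15 passed, all higher (8.33% of all tested genes were). Summed CPM of the 18 otic genes was 2157 and 2318 in control libraries against 427 and 438 in Brg1cKO, with 1 called lower by edgeR (Oc90) and 15 by DESeq2 (6.3% of all tested genes were). Endothelial genes stood at 3985 and 3583 CPM summed over 15 genes against 4273 and 4180 CPM, with 0 called by edgeR and 4 of 15 at an unadjusted p under 0.05 (12.5% of all tested genes). DESeq2 called 3 of the endothelial genes higher (8.33%) and 1 lower (6.3%). In the same libraries the 7 globins stood at 568 and 637 against 215 and 199 CPM.

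Macrophages take up red cells and recycle their iron, and most genes of that function had positive fold changes. Fth1, the heavy chain of the iron store ferritin, was at 261 and 296 CPM in control libraries against 447 and 445 CPM in Brg1cKO, and Stab1, a scavenger receptor also made by endothelium, was at 485 and 376 against 743 and 724 CPM. Of 12 genes tested, 0 were called by edgeR, 4 had an unadjusted p under 0.05 with higher values (7.66% of all tested genes) and 1 with lower values (4.8%), and DESeq2 called 5 higher (8.33%) and 1 lower (6.3%). The median was 0.59, and 0.95 without control replicate 2. Cd163, the haemoglobin scavenger receptor, had 0 reads in all 4 libraries, and was named after its values were seen. Among blood progenitor genes, 0 of 11 were called by edgeR, with 3 at an unadjusted p under 0.05, all higher (7.66%), and 3 were called higher by DESeq2 (8.33%). Spi1, a factor of white blood cell fate, was at 6.76 and 24.9 against 93.4 and 75.4 CPM, and Cd34 and Kit, progenitor markers also made by endothelium and other cells, had overlapping groups.

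**Figure D5:**
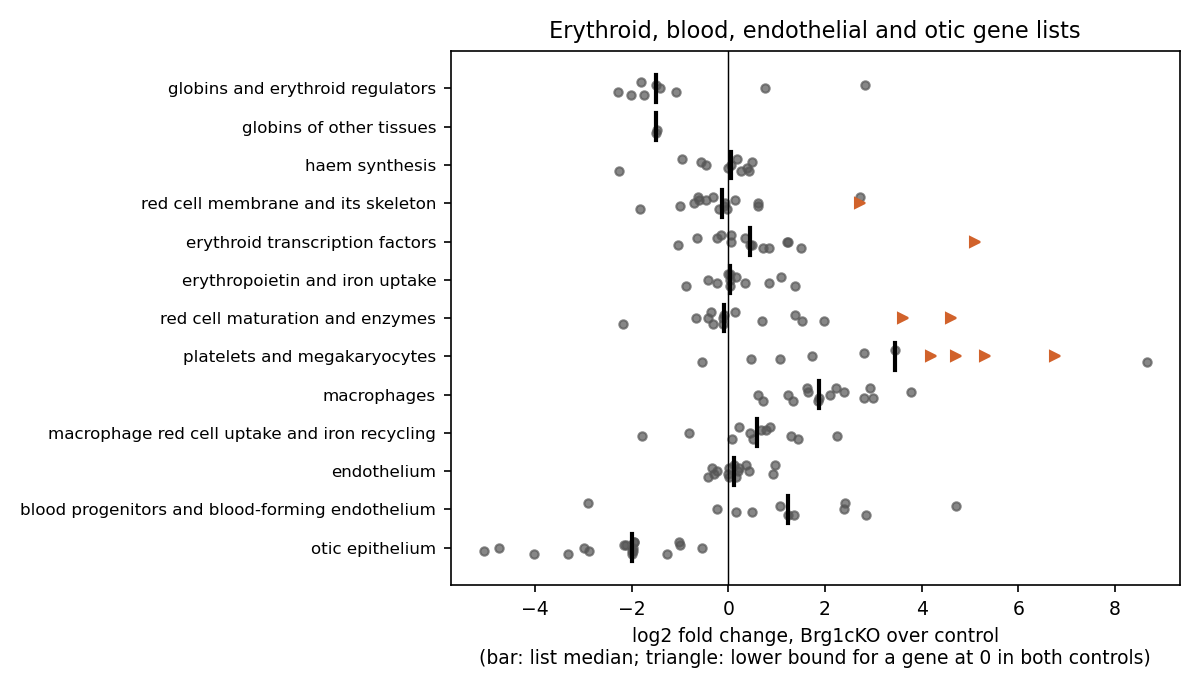
Log2 fold change of Brg1cKO over control (horizontal axis) of each tested gene (dots) in 13 lists, with list medians as bars and triangles for lower bounds of genes at 0 in both controls. The globins and erythroid regulators (median -1.49) and the otic genes (-1.99) lie mostly left of 0, the macrophage (1.87) and platelet (3.45) genes mostly right of it, and the haem synthesis and iron uptake genes around it.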

How the data were processed

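RNA-seq of sorted otic cells was analysed in 4 libraries, 2 per group, grouped by the labels. The authors deposited raw read counts per Ensembl gene. Per the submitters' processing notes, the tools were HISAT2, HTSeq and DESeq2 and the build mm10. The strand setting, annotation and tool versions were not given in the sources used here. Libraries were random-primed, strand-specific and read from a single end over 75 bases, per the labels' protocols. Lines that name no gene (unassigned, ambiguous, unaligned and not uniquely aligned records, 36.0% to 51.8% of records) entered neither library totals nor tests.

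Symbols and positions came from GENCODE M21 on the same build, which matched 52403 of 52636 identifiers. Counts were filtered with filterByExpr (minimum count 10), scaled by TMM and tested with edgeR 4.0.16 (quasi-likelihood, robust, group as the only term, R 4.3.3) over 16557 genes. SEs were derived from the F statistic. DESeq2 1.42.0 and limma 3.58.1 were alternatives. The fit was tested on simulated data with a fixed spread between replicates that was not taken from these libraries. How the fit performs at the spread of these libraries was not tested. The 10 genes and 13 further gene lists were chosen with earlier results of these data known. Named genes were the 10 genes and, in each list, the 3 with the highest CPM and the 2 with the smallest p, from which the text takes a part, and others are marked. For likeness, the 5 nearest genes were named, from those averaging 3 or more in log2 CPM. Read windows, motifs and shares were computed in Python 3.11.15. Replicate numbers are not said to pair libraries. No pairing was assumed. Alternatives were other scalings, count filters, moderation settings and tools, thinning to equal depth, and each library left out. Some genes of these lists are not reported here by name.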

Additional observations from a re-analysis of the deposited data

How the results depend on the processing

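Counts of genes called over the whole table moved with the setting and with the library left out: 5 as reported, 417 with every gene of at least 1 count, 10 with a minimum count of 50, 2422 with DESeq2, 54 with limma voom, 70 with the newer edgeR moderation, 38 at an adjusted p under 0.10, and 33 to 3519 when 1 library was left out. Of the globins and erythroid regulators, 0 were called as reported, 2 with every gene of at least 1 count (Hbb-y and Hba-x), 5 with DESeq2, 1 with limma voom, 1 with the newer moderation and 1 to 4 with 1 library left out. With the replicate number as a block, 140 genes were called, Hbb-y and Hba-x among them (2 of the 9 tested), although same-numbered libraries share only a number (correlation of deviations -0.00528). The cause of these shifts was not tested. The log2 fold change of Hba-a2 (-1.81) ranged from -2.70 to 0.97 with 1 library left out, positive without control replicate 2. That of Gata1 (0.77) ranged from -0.93 to 9.30 with 1 library left out. It was -0.23 without control replicate 1 and -0.93 without Brg1cKO replicate 2. The 9.30 came without control replicate 2, where the control left had 0 Gata1 reads, so its size is not a measured fold. The difference in the embryonic share of beta-type reads ranged from -0.10 points (without Brg1cKO replicate 2) to 0.990. Hbb-y, Hbb-bh1, Hba-x, Hba-a1, Hbb-bt and Slc4a1 kept a negative sign in all 15 alternatives. The summed globin log2 ratio stayed between -1.62 and -1.47 under the other scalings and with each library left out. The median of the membrane list ranged from -0.73 to 0.42 and that of the maturation list from -0.14 to 0.60. The values for list medians and for the Hbb-y share with a library left out were chosen after seeing the data. At under 100 reads, as for Hbb-bt, Hbb-bs and Klf1 in all libraries, depth limits what can be told.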

Other observations

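Globins of other tissues were read as well, at low and uneven levels. Cygb, a globin of fibroblast-type cells, was at 12.1 and 1.38 CPM in control libraries against 1.84 and 2.93 CPM in Brg1cKO. Mb, the muscle myoglobin gene, was at 1.75 and 1.54 CPM against 0.171 and 1.003 CPM. Ngb, the neuronal globin gene, had 77 reads in Brg1cKO replicate 2 and 0 in the other 3 libraries.

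The genes whose pattern over the 4 libraries was most like the mean pattern of the 9 tested genes were Zfp780b, Dmwd, Cldn7, Bcam and Cul9. Likeness was the root mean square difference of mean-centred log2(CPM + 2), which was 0.0226 for Zfp780b and 0.0522 for Cul9, among 11076 candidates. Cldn7 was at 25.1 and 31.4 CPM in control libraries against 15.1 and 15.4 CPM in Brg1cKO, and Bcam at 144 and 178 against 83.5 and 94.2 CPM. With 4 libraries such likeness is common, since 669 candidates lay within 0.25. Of the 9 genes themselves Hbb-bh1 was nearest to their mean pattern (0.0788) and Gata1 the farthest (0.922).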
